A study of Mus musculus with 12 samples.

Results

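Transcription regulators that act in the alternative activation of macrophages were followed through all 6 conditions of this study. The 10 genes, Irf4, Egr2, Klf4, Myc, Pparg, Ppargc1b, Bhlhe40, Batf3, Cebpb and Kdm6b, were chosen by name from the 34327 genes of the deposited RNA-seq table. Bone marrow–derived macrophages (BMDMs) were embedded in collagen I gels of 2 mg/ml (low-collagen gels) or 7 mg/ml (high-collagen gels), or were cultured on tissue culture (TC) plates. In each of these settings the cells stayed untreated or received recombinant IL-4 at 20 ng/ml, and the labels give 24 hours for every library. The resulting 6 groups held 2 libraries each, 12 libraries in all. The comparisons ask how IL-4 changed these genes, and how the collagen concentration and the gel itself altered their levels.

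All groups shared the same source, wild-type C57BL/6J mouse marrow grown in L929-conditioned medium, so the cells are a culture model and not macrophages taken from tissue. The gels were detached so that they floated, and the plates held no collagen gel, so a gel differed from a plate in more than its collagen concentration. No label says whether the 2 libraries of a group came from separate cultures or animals, so each p measures the spread between these samples only. An exact permutation test of 2 against 2 libraries cannot give a p below 0.333, and therefore the adjusted p values here come from limma, which pools the spread over groups and genes.

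IL-4 binds a receptor on the macrophage surface that activates JAK kinases and the transcription factor STAT6, and STAT6 turns on genes of tissue repair such as Retnla and Chil3. Several other regulators act with or downstream of STAT6, among them the interferon regulatory factor IRF4, the zinc finger factors EGR2 and KLF4, MYC, and the lipid-sensing nuclear receptor PPARγ with its coactivator PGC-1β. Bhlhe40 encodes a repressor of the bHLH family, Batf3 and Cebpb encode bZIP factors, and Kdm6b encodes a demethylase that removes repressive methyl marks from histone H3.

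Levels are given in TPM (transcript abundance brought to one common total), a measure per transcript length, so that levels of different genes can be compared. TPM hold no read counts, the depth of each library is unknown, and no counting interval can be given.  The macrophage label was checked against marker genes. All 7 macrophage markers had a mean of at least 1 TPM, led by Lyz2 at 30693.8 TPM. Their sum, most of it Lyz2, ran from 17460.4 TPM on a TC plate with IL-4 to 53485.4 TPM in an untreated high-collagen gel. Cd68 ran the other way, with group means of 2818.35 TPM on TC plates with IL-4 and 1440.76 TPM in untreated high-collagen gels. Cd68 and Adgre1 had higher means with IL-4 in each setting, while Lyz2, Csf1r, Itgam, Mertk and Fcgr1 had lower ones. Of 6 dendritic cell markers, a group relevant to Irf4 and Batf3, none reached a mean of 1 TPM, the highest being Zbtb46 at 0.560 TPM, and their sum stayed between 0.865 and 2.57 TPM.

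Markers of other marrow cells were low as well. Of 6 neutrophil and progenitor markers 2 reached a mean of 1 TPM over the 12 libraries, with S100a9 highest at 7.71 TPM, Ly6g at 0 in every library and sums of 4.08 to 30.4 TPM, the higher ones in gels. None of 5 eosinophil markers reached that mean (Siglecf highest at 0.828 TPM, Epx at 0, sums of 0.850 to 3.46 TPM), but 2 exceeded 1 TPM in single groups. Siglecf had group means of 1.71 TPM in high-collagen gels and 1.17 TPM on TC plates with IL-4, against 0.840 and 0.227 TPM untreated, and Ccr3 had 1.63 TPM on untreated TC plates and 1.52 TPM with IL-4. The 4 mast cell and basophil markers summed to at most 0.190 TPM with Fcer1a at 0, the 5 fibroblast markers to at most 0.668 TPM, and the 5 lymphocyte markers to at most 1.03 TPM. The part of other cells in the results was not tested beyond these values. In bulk RNA, fewer cells of a type and less RNA per cell cannot be told apart.

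IL-4 raised 8 of the 10 regulators in every setting. In low-collagen gels Irf4, Egr2, Klf4, Myc, Pparg, Ppargc1b, Bhlhe40 and Batf3 were called higher (8 of 10, beside 13.2% of all genes tested), where a call is an adjusted p below 0.2. Cebpb and Kdm6b were called lower there (2 of 10, beside 40.4% of all genes). The same 8 genes were called higher in high-collagen gels (beside 11.5% of genes) and the same 2 lower (beside 22.8%). On TC plates the same 8 were called higher (beside 14.7%), and none of the 10 was called lower (beside 24% of genes), with Cebpb and Kdm6b at unadjusted p values of 0.163 and 0.65 in limma. The counts of related genes given below are to be read beside the same shares of all genes. Since the 10 genes and the lists were chosen with earlier results of these data known, such counts describe chosen genes and are not a test of the group. The plot of TPM in each library shows these differences against the spread within groups.

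The median log2 fold change of the 10 regulators with IL-4 was 2.22 in low-collagen gels, 1.88 in high-collagen gels and 1.71 on TC plates. Over all genes tested the medians were −0.19, −0.10 and −0.06. Because those medians lay below 0, the values were also rescaled by median ratios, which moved the median of all genes to 0.0022, −0.0006 and −0.0003. The 8 higher calls held in each setting after that rescaling, while both calls of Kdm6b did not. All 10 regulators passed the filter of a mean of at least 1 TPM, but Irf4, Egr2 and Ppargc1b had group means below 1 TPM in some untreated groups. Fold changes were taken on log2(TPM + 1), which understates the change of genes at such low levels.

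**Figure D1:**
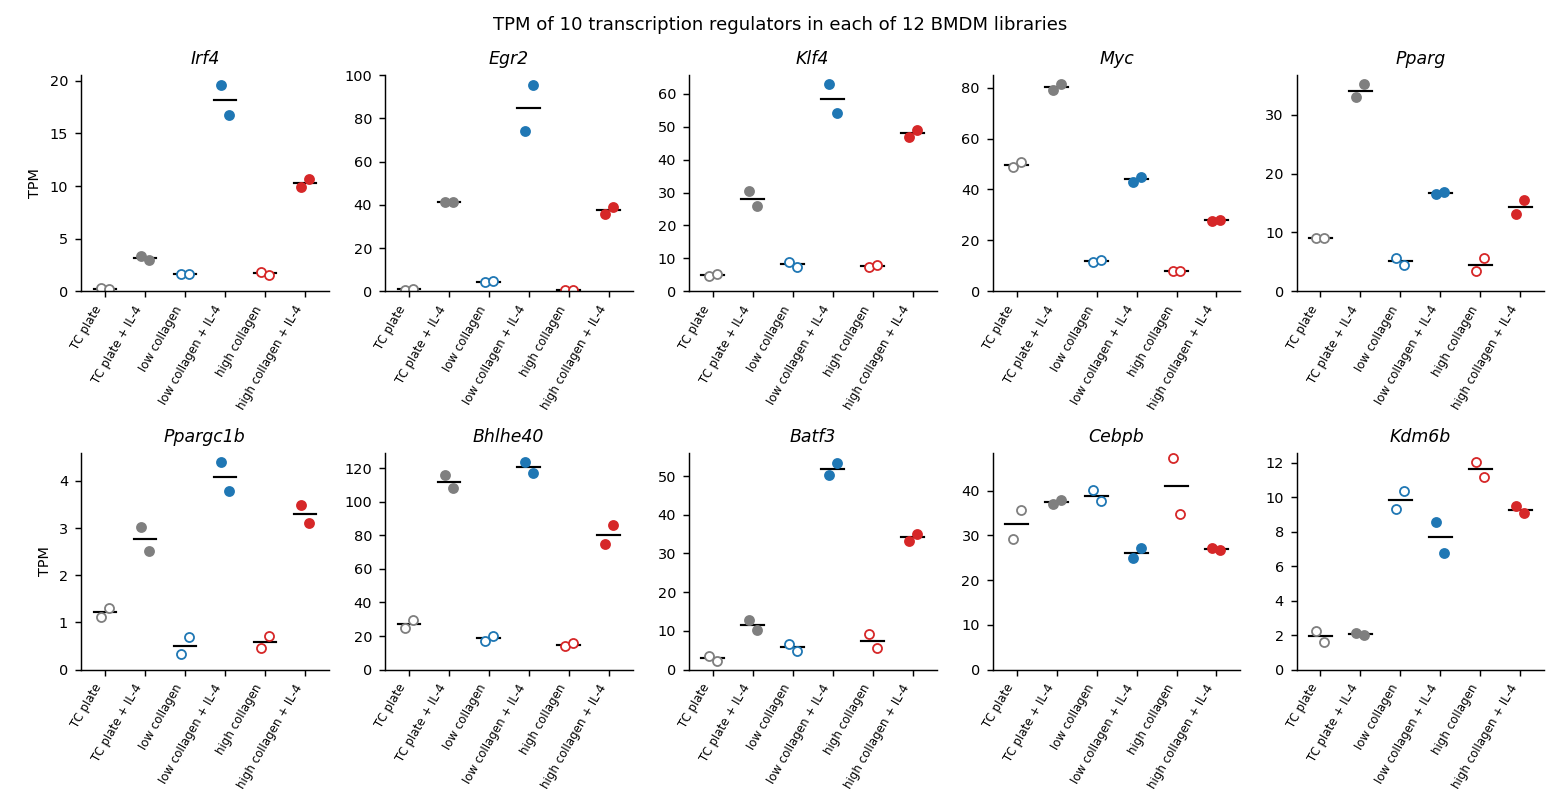
TPM of the 10 regulators in each of the 12 libraries, with open circles for untreated cells, filled circles for IL-4 and a line at each group mean. Of the 10 genes, 8 were higher with IL-4 in every setting, while Cebpb and Kdm6b were lower with IL-4 in the gels.

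Irf4 encodes the interferon regulatory factor of the IL-4 program. Its TPM were 0.285 and 0.205 on untreated TC plates and 3.35 and 2.94 with IL-4. In low-collagen gels they were 1.65 and 1.62 untreated and 19.6 and 16.7 with IL-4, and in high-collagen gels 1.85 and 1.58 untreated and 9.95 and 10.6 with IL-4. Every library with IL-4 lay above every untreated one, and the untreated gels of both concentrations overlapped. Low-collagen gels with IL-4 were the highest group, followed by high-collagen gels and then TC plates with IL-4, with no overlap among the 3. IL-4 raised the mean level 11.1-fold in low-collagen gels (log2 fold change 2.86, SE 0.149, adjusted p = 1.01e-05). The rise was 5.99-fold in high-collagen gels (2.06, adjusted p = 8.66e-05) and 12.8-fold on TC plates (1.74, adjusted p = 2.99e-05). Both libraries with IL-4 exceeded both untreated ones in each setting.

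The collagen concentration separated Irf4 levels with IL-4 but not without it. High-collagen gels with IL-4 had 1.77-fold less Irf4 than low-collagen gels with IL-4 (log2 −0.76, adjusted p = 0.034, lower in 2 of 2 libraries). Without IL-4 the log2 difference was 0.044 (adjusted p = 0.918). The interaction, which is the IL-4 response at high collagen minus the response at low collagen, was −0.80 on the log2 scale (unadjusted p = 0.0055, adjusted p = 0.357) and did not pass the test over all genes. Gels as a whole exceeded TC plates, by 1.10 on the log2 scale when untreated (adjusted p = 4.82e-05, and a difference of 2.37 with a pseudocount of 0.1 in place of 1, since the untreated plates held under 1 TPM) and by 1.83 with IL-4 (adjusted p = 1.70e-06), and all 4 gel libraries lay above both plate libraries each time. The response itself was larger in gels than on plates by 0.72 (adjusted p = 0.0369), but with the smaller pseudocount this difference turned to −0.28 (adjusted p = 0.556). As ratios of mean TPM, the rise on plates was larger than in either gel.

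Irf4 lies at chr13:30749226-30766976 on the plus strand (GRCm38). The genes with the nearest pattern over the 12 libraries, on log2(TPM + 1), were Batf3 (r = 0.989) and Cd63 (r = 0.983), a description of libraries that share the IL-4 treatment. Of the 7 other interferon regulatory factor genes, 1 was higher and 3 were lower with IL-4 in low-collagen gels, with a median log2 fold change of −0.14, and after rescaling 2 were higher and 2 lower (median 0.075). In high-collagen gels 3 were lower and the median was −0.29 (after rescaling 1 was higher and 2 lower), while on TC plates 1 was higher, 4 were lower and the median was −0.23. The lineage factor gene Irf8 fell in low-collagen gels (−0.79, adjusted p = 0.000232) and Irf7 fell on TC plates (−1.82, adjusted p = 0.00993). Irf8, Irf1 and Irf2 were among 5 of the 7 genes that were higher in untreated gels than on plates (beside 29.7% of all genes), at 1.31, 1.12 and 0.56. With IL-4, 6 of the 7 were higher in gels (beside 25.7%). High-collagen gels with IL-4 had less Irf3 (−0.32) and more Irf8 (0.30) than low-collagen gels with IL-4, although after rescaling Irf8 was no longer called and 2 of the 7 were lower.

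Egr2, which encodes a zinc finger factor induced by IL-4, had the largest IL-4 effect of the 10 genes in each setting. Its TPM were 0.699 and 1.09 on untreated TC plates and 41.3 and 41.2 with IL-4. Low-collagen gels gave 4.09 and 4.97 untreated and 74.3 and 95.6 with IL-4, and high-collagen gels 0.82 and 0.473 untreated and 36 and 38.9 with IL-4. The low-collagen gels stood above the other settings both without and with IL-4, while untreated high-collagen gels and untreated TC plates overlapped. The mean rose 18.8-fold in low-collagen gels (log2 fold change 3.95, SE 0.169, adjusted p = 3.60e-06), from the higher starting level. In high-collagen gels the rise was 57.9-fold (4.55, adjusted p = 3.30e-06), and on TC plates 46.2-fold (4.49, adjusted p = 9.45e-08). Both libraries with IL-4 exceeded both untreated ones each time.

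The collagen concentration marked Egr2 in both states. Untreated high-collagen gels had 7-fold less Egr2 than untreated low-collagen gels (log2 −1.75, SE 0.169, adjusted p = 0.0102). With IL-4 the difference was 2.27-fold (log2 −1.15, adjusted p = 0.0162), and in both states both high-collagen libraries lay below both low-collagen ones. The difference between the IL-4 responses was 0.60 (unadjusted p = 0.037, adjusted p = 0.488) and did not pass the test. With a pseudocount of 0.1 it was 1.50 and did not pass either (adjusted p = 0.323), with untreated high-collagen gels under 1 TPM. Against TC plates, the mean of the gels was higher by 0.67 untreated (adjusted p = 0.00223) and by 0.44 with IL-4 (adjusted p = 0.0218). These differences rested on the low-collagen gels, since the high-collagen gels lay level with or below the plates and the groups overlapped. The IL-4 response in gels differed from that on plates by −0.24 (adjusted p = 0.503, 95% interval −0.69 to 0.22).

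Since 8 of the regulators moved together with IL-4, their promoters were read for short motifs of factors from the same group. Of the 10 genes, 6 were read among the 32851 RefSeq promoter windows (build GRCm38.p6), namely Irf4, Egr2, Klf4, Pparg, Batf3 and Cebpb, with 12 windows in all. The chromosome of Ppargc1b was left out when windows of the regulators were taken, so Ppargc1b was not searched. That chromosome is included in the shares over all promoters. The 250 bases before each start were searched on both strands for the STAT motif (TTC, then any 4 bases, then GAA), the C/EBP motif TTGCNNAA, the EGR motif GCGNGGGCG and the E-box CACGTG, which MYC with its partner MAX and BHLHE40 can bind. Of all promoters, 5.85% held the STAT motif, 9.56% the C/EBP motif, 4.7% the EGR motif and 6.02% the E-box. Since 3 of the 5 Egr2 windows overlap, the 12 windows are not separate promoters, and no comparison with these percentages is made. None of the 12 held the STAT motif, 1 held the C/EBP motif, 1 the EGR motif and 3 the E-box. The matches did not overlap each other, and a match of letters is a description and not a site of binding. Of the 5 Egr2 starts, the window at chr10:67535249-67535498 on the plus strand held an E-box 27 bases before the start, in capitals here, and it is shown because it held a match.
Egr2: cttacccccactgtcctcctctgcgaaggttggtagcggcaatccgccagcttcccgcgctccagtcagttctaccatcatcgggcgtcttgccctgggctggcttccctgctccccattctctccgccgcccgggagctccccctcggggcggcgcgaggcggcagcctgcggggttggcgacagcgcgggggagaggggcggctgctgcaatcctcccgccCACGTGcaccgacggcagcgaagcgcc

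Egr2 lies at chr10:67535475-67542188 on the plus strand, and 0.406% of its 31-base transcript words also occur in another gene, most in its relative Egr3. The nearest patterns over the 12 libraries were those of Clta (r = 0.991) and Mgat1 (r = 0.979). Of Egr1, Egr3, Nab1 and Nab2 (EGR factors and the corepressors that bind them), 3 fell and 1 rose with IL-4 in low-collagen gels (median −0.72, or −0.51 after rescaling). Egr3 (log2 −1.57, adjusted p = 0.00171), Egr1 (−0.86) and Nab1 (−0.57) fell, while Nab2 rose by 0.42. High-collagen gels showed 2 lower and 1 higher (median −0.48), and TC plates 3 lower and 1 higher (median −0.63). Between gels, though, Egr1 and Egr3 followed the direction of Egr2. Untreated high-collagen gels had less Egr3 (−2.45) and Egr1 (−1.33) than low-collagen gels, and so did those with IL-4 (Egr1 −1.56, Egr3 −1.28). Gels exceeded plates in Egr1, by 2.04 untreated and 2.84 with IL-4. Of the 4 genes, 2 were called higher and 2 lower in gels untreated (beside 29.7% and 46.7% of all genes). With IL-4 the counts were also 2 and 2 (beside 25.7% and 51.8%).

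Klf4 encodes a zinc finger factor that acts with STAT6 in macrophages. On TC plates its TPM were 4.61 and 5.34 untreated and 30.6 and 25.8 with IL-4. In low-collagen gels they were 8.9 and 7.39 untreated and 62.9 and 54.1 with IL-4, and in high-collagen gels 7.4 and 8.01 untreated and 46.9 and 49 with IL-4. All libraries with IL-4 exceeded all untreated ones, and the 3 groups with IL-4 were ordered low-collagen gels, high-collagen gels, TC plates without overlap. Untreated gels of both concentrations overlapped. IL-4 raised Klf4 7.18-fold in low-collagen gels (log2 fold change 2.70, SE 0.121, adjusted p = 4.58e-06). It did so 6.22-fold in high-collagen gels (2.49, adjusted p = 1.11e-05) and 5.66-fold on TC plates (2.29, adjusted p = 1.49e-06).
Its window at chr4:55532476-55532725 on the minus strand, shown for its matches, held 2 EGR motifs 211 and 194 bases before the start and an E-box 182 bases before it, all in capitals.
Klf4: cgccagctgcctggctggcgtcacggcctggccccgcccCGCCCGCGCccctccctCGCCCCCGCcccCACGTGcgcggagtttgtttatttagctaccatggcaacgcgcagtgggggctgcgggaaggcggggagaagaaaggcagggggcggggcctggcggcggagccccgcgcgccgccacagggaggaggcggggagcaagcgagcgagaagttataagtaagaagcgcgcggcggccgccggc

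With IL-4, the Klf4 difference of high- from low-collagen gels was −0.28 on the log2 scale and did not pass the test (adjusted p = 0.224), although both high-collagen libraries were lower. It passed after rescaling (−0.36, adjusted p = 0.131) and when either untreated low-collagen library was left out (adjusted p = 0.184 without replicate 1 and 0.179 without replicate 2). Without IL-4 the difference was −0.067 (adjusted p = 0.838). Gels exceeded plates in all libraries, by 0.58 untreated (adjusted p = 0.00117) and 0.89 with IL-4 (adjusted p = 6.40e-05). The IL-4 response was 0.31 larger in gels than on plates, which did not pass (adjusted p = 0.246). It passed after rescaling (adjusted p = 0.112), without replicate 1 of TC plates with IL-4 (0.191) and without replicate 1 of untreated low-collagen gels (0.161).

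Klf4 lies at chr4:55527143-55532466 on the minus strand, and 2% of its 31-base words are shared with other genes, most of them with Gm48640. Its nearest patterns were those of A930018M24Rik (r = 0.993) and Rasgrp1 (r = 0.988). Among 7 other KLF genes, a family of zinc finger factors, 6 fell and 1 rose with IL-4 in low-collagen gels (median −0.49, beside 40.4% of all genes called lower and a median of −0.19), or 4 and 1 after rescaling (median −0.28). Klf2 (−0.84, adjusted p = 0.00604), Klf7 (−0.76) and Klf3 (−0.58) fell, and Klf9 rose by 0.80. In high-collagen gels 3 fell and 1 rose (median −0.18, beside 22.8% lower), and on TC plates 4 fell and 1 rose (median −0.28, beside 24%), Klf9 by 1.61. Between gels of high and low collagen Klf10 was lower at high collagen, with −0.74 untreated and −0.28 with IL-4. Against plates, untreated gels had 5 of the 7 higher and 1 lower (beside 29.7% and 46.7% of all genes), led by Klf2 at 1.25.

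Myc, the gene of a bHLH factor that drives cell growth, was highest on plates in each state. Its TPM on TC plates were 48.7 and 50.7 untreated and 79.1 and 81.4 with IL-4. Low-collagen gels gave 11.4 and 12.1 untreated and 43 and 44.9 with IL-4, and high-collagen gels 7.94 and 7.83 untreated and 27.7 and 28.2 with IL-4. None of the 6 groups overlapped its neighbour in the order of levels, and untreated plates lay above even the gels with IL-4. IL-4 raised Myc 3.74-fold in low-collagen gels (log2 fold change 1.82, SE 0.0905, adjusted p = 8.30e-06) and 3.54-fold in high-collagen gels (1.70, adjusted p = 1.76e-05). On TC plates the rise was 1.62-fold (0.68, SE 0.072, adjusted p = 9.94e-05). The response was larger in gels than on plates by 1.08 (SE 0.0882, adjusted p = 0.000101), the largest such difference among the 10 genes on this scale, though not with a pseudocount of 0.1 (1.16, below Ppargc1b at 1.46).

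Gels held less Myc than plates, 5.06-fold untreated (log2 −2.25, adjusted p = 5.94e-09) and 2.23-fold with IL-4 (−1.17, adjusted p = 2.59e-07). All 4 gel libraries lay below both plate libraries in each state. High-collagen gels had 1.57-fold less Myc than low-collagen gels with IL-4 (−0.63, adjusted p = 0.0151) and 1.49-fold less without it (−0.52, adjusted p = 0.0624), with both libraries lower each time. The call without IL-4 was lost when replicate 2 of the untreated high-collagen gels was left out (adjusted p = 0.223). The IL-4 responses at high and low collagen differed by −0.12 (adjusted p = 0.801, 95% interval −0.41 to 0.18). Myc lies at chr15:61985391-61990374 on the plus strand, shares none of its 31-base words with another gene, and had its nearest patterns in Psmb6 (r = 0.993) and Anxa1 (r = 0.990).

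Genes of the MYC network, its partner Max and the competing MXD factors, were read beside it. Of 8 tested, 5 fell with IL-4 in low-collagen gels (median −0.24, or −0.026 after rescaling, when 2 were lower), led by Mxd1 at −0.46 (adjusted p = 0.0216). In high-collagen gels Mxd1 alone fell (−0.30) and the call was lost after rescaling, and on TC plates 3 fell and Mxd4 rose by 0.87, or 2 fell and 3 rose after rescaling. Untreated gels exceeded plates in Mxd4 (1.98) and Mxi1 (1.37), both genes of MYC antagonists. Of the 8 tested, 3 were called higher and 3 lower in untreated gels (median −0.082, beside 29.7% and 46.7% of all genes). With IL-4, 3 were called higher and 5 lower (median −0.38, beside 25.7% and 51.8%). A list of 14 MYC target genes for ribosome building and growth set gels apart from plates. Of these, 13 were lower in untreated gels (median −1.37, beside −0.15 over all genes and 46.7% of all genes called lower), with Srm at −2.73, Nop58 at −2.41, Nop56 at −2.27 and Bop1 at −1.93. With IL-4, 13 were lower and 1 was higher in gels (median −1.67, beside −0.24 and 51.8%) and Srm again led at −2.58. With IL-4 the targets had 5 higher and 2 lower in low-collagen gels (median 0.06), 4 and 2 in high-collagen gels (0.092), and 5 and 2 on TC plates (0.15). After rescaling these counts were 6 and 0 (median 0.26), 5 and 1, and 6 and 2. Given IL-4, high-collagen gels were lower than low-collagen ones in 4 of the 14 (beside 6.99% of all genes), among them the polyamine enzyme gene Odc1 at −0.37.

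**Figure D2:**
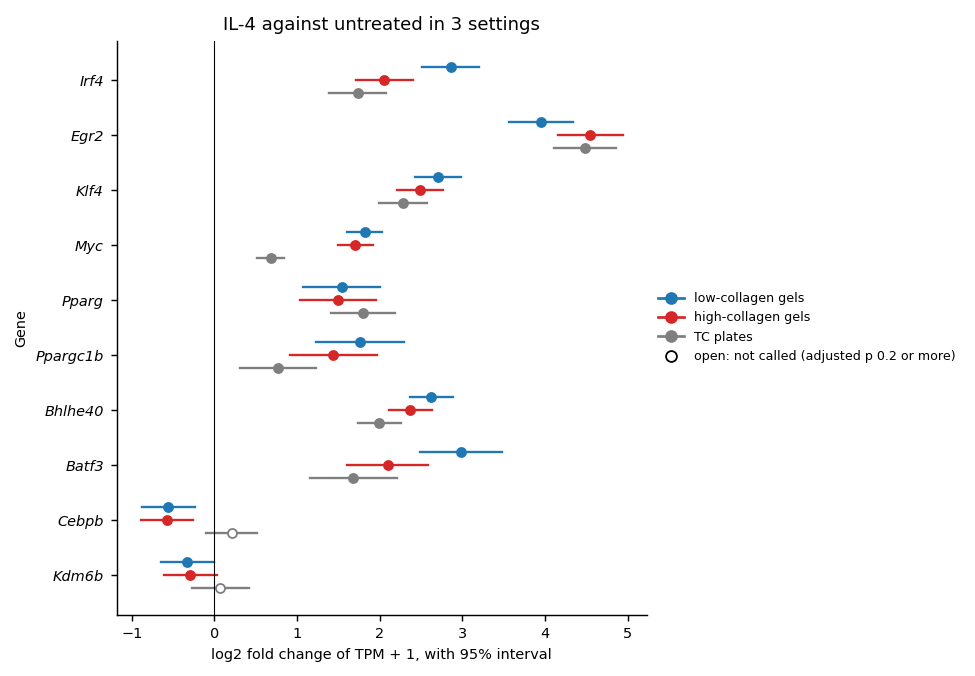
Log2 fold change of TPM + 1 with IL-4 against untreated cells for the 10 regulators, with 95% intervals from limma, in low-collagen gels, high-collagen gels and on TC plates. Egr2 had the largest values at 3.95, 4.55 and 4.49, while the values of Kdm6b lay near 0 and its calls in gels were lost after rescaling.

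Pparg encodes the nuclear receptor of fatty acid ligands. Its TPM were 9.09 and 9.09 on untreated TC plates and 33 and 35.2 with IL-4. In low-collagen gels they were 5.71 and 4.51 untreated and 16.5 and 16.9 with IL-4, and in high-collagen gels 3.51 and 5.57 untreated and 13.2 and 15.6 with IL-4. Like Myc it was highest on plates with IL-4, and the untreated gels of both concentrations overlapped at the bottom. IL-4 raised Pparg 3.27-fold in low-collagen gels (log2 fold change 1.54, SE 0.2, adjusted p = 0.00106). The rise was 3.17-fold in high-collagen gels (1.49, adjusted p = 0.00197) and 3.75-fold on TC plates (1.80, adjusted p = 5.65e-05). Both libraries with IL-4 lay above both untreated ones each time.
Of its 3 promoter windows, that at chr6:115421816-115422065 on the plus strand held 2 C/EBP motifs, 215 and 16 bases before its RefSeq start. They are in capitals here, and the window is shown for these matches. It lies inside the annotated gene, at chr6:115360951-115490399.
Pparg: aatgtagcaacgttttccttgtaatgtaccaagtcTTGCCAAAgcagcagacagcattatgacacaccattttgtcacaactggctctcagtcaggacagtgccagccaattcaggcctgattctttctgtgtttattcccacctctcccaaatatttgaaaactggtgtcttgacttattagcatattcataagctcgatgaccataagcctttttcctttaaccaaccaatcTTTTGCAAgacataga

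Gels held 1.88-fold less Pparg than plates when untreated (log2 −0.81, adjusted p = 0.000982) and 2.19-fold less with IL-4 (−1.09, adjusted p = 0.000133), in all 4 gel libraries each time. The collagen concentration gave no call, with −0.16 untreated (adjusted p = 0.754) and −0.21 with IL-4 (adjusted p = 0.581), and the interaction was −0.046 (adjusted p = 0.975). The IL-4 response in gels differed from that on plates by −0.28 and did not pass (adjusted p = 0.447), but it passed without replicate 1 of the untreated high-collagen gels (−0.42, adjusted p = 0.162). Pparg lies at chr6:115360951-115490399 on the plus strand and overlaps the antisense gene Gm44079, and its transcripts share 0.0672% of their 31-base words with other genes. Its nearest patterns were those of Lipn (r = 0.988) and Arhgap10 (r = 0.988), and Lipn is a lipase gene.

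Of 6 other PPAR and RXR genes tested, 3 fell with IL-4 in low-collagen gels (median −0.20), or 1 after rescaling (median 0.0088), with the corepressor gene Ncor1 at −0.69 and the partner receptor gene Rxrb at −0.38. In high-collagen gels 2 fell (median −0.24), or 1 after rescaling, and on TC plates 2 fell and 1 rose (median −0.053), with Ppard at −0.51. Among 8 tested PPARγ target genes of lipid handling, the counts differed between settings. On TC plates 5 rose (median 0.48), led by the fatty acid transporter gene Cd36 at 1.74 and Fabp4 at 1.42. In low-collagen gels 2 rose and 5 fell (median −0.53), with Fabp4 at 1.56, Cd36 at 1.04 and the lipase inhibitor gene Angptl4 at −2.64. High-collagen gels had 3 higher and 4 lower (median −0.32). The IL-4 response of 5 of the 8 was smaller in gels than on plates (median −0.84), with Plin2 at −1.13 (adjusted p = 1.59e-05). Over all genes, 16.4% were called with a smaller response in gels, and the median was −0.076. Untreated gels had 3 of the 8 higher than plates and 4 lower (beside 29.7% and 46.7% of all genes), with Angptl4 at 2.61, Lpl at −2.61 and Cd36 at −2.15. With IL-4 2 were higher and 6 lower (beside 25.7% and 51.8% of all genes), or 3 and 4 after rescaling. High-collagen gels with IL-4 exceeded low-collagen ones in 5 of the 8 (beside 1672 of 11852 genes), or 4 after rescaling, Angptl4 by 1.29 and Cd36 by 0.64, and held less Fabp4 (−0.43).

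Ppargc1b, the gene of PGC-1β, a coactivator of mitochondrial and lipid genes, was the least abundant of the 10 regulators in gels. Its TPM were 1.12 and 1.3 on untreated TC plates and 3.02 and 2.52 with IL-4. Low-collagen gels gave 0.333 and 0.681 untreated and 4.39 and 3.79 with IL-4, and high-collagen gels 0.456 and 0.722 untreated and 3.49 and 3.12 with IL-4. All 6 libraries with IL-4 exceeded the untreated ones. The order differed with treatment, with plates highest when untreated and lowest with IL-4. IL-4 raised it by 1.76 on the log2 scale in low-collagen gels (SE 0.228, adjusted p = 0.00103), by 1.44 in high-collagen gels (adjusted p = 0.00451) and by 0.77 on TC plates (adjusted p = 0.0234). As ratios of mean TPM these rises were 8.07-fold, 5.61-fold and 2.28-fold. With a pseudocount of 0.1 the log2 values in the gels became larger, at 2.85 and 2.33.

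Without IL-4, gels held less Ppargc1b than plates (−0.52, adjusted p = 0.0259), and with IL-4 more (0.31, adjusted p = 0.147), in all 4 gel libraries each time. The second of these calls was lost with a pseudocount of 0.1 (adjusted p = 0.307), while the first value became −1.06 (adjusted p = 0.0162). The call with IL-4 was also lost without replicate 2 of TC plates with IL-4 (adjusted p = 0.448), without replicate 1 of high-collagen gels with IL-4 (0.249) and without replicate 1 of low-collagen gels with IL-4 (0.276). The IL-4 response was larger in gels than on plates by 0.84 (SE 0.252, adjusted p = 0.0638), or by 1.46 with the smaller pseudocount (adjusted p = 0.0782). Between collagen concentrations the differences were 0.081 untreated (adjusted p = 0.901) and −0.24 with IL-4 (adjusted p = 0.568), with an interaction of −0.32 (adjusted p = 0.782). Its transcripts shared 0.276% of their 31-base words with other genes, and its nearest patterns were those of Gda (r = 0.988) and Osgep (r = 0.980).

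The relatives and partners of PGC-1β moved little with IL-4. Of 5 tested, Tfam, the mitochondrial DNA factor gene, fell in low-collagen gels (−0.22, adjusted p = 0.188) and in high-collagen gels (−0.28, adjusted p = 0.144). On TC plates the receptor gene Esrra fell (−0.23), and after rescaling none of these 5 genes was called lower with IL-4 in any setting, while 1 was called higher in low-collagen gels and 1 on TC plates. The list medians were −0.09, −0.042 and −0.032 for low-collagen gels, high-collagen gels and TC plates. Gels held less of the relative Pprc1 than plates (−1.76 untreated and −1.96 with IL-4). Of 8 mitochondrial genes, 6 rose with IL-4 in low-collagen gels (median 0.18), 4 in high-collagen gels (0.14) and 1 on TC plates (0.086), beside 13.2%, 11.5% and 14.7% of all genes. After rescaling these counts were 7, 6 and 4. Cytochrome c, encoded by Cycs, led in low-collagen gels at 0.73, with Idh3a at 0.65 and Cox5a at 0.42. Of the same 8, 6 were lower and 1 was higher in untreated gels than on plates (median −0.55, beside −0.15 over all genes and 46.7% of all genes called lower), with Idh3a at −2.23 and Cycs at −1.98, and 7 were lower and 1 was higher with IL-4 (median −0.50, beside −0.24 and 51.8%).

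Bhlhe40, the gene of the bHLH repressor, was the most abundant of the 10 regulators in all groups with IL-4. Its TPM on TC plates were 24.9 and 29.9 untreated and 116 and 108 with IL-4. In low-collagen gels they were 17.3 and 20.2 untreated and 124 and 117 with IL-4, and in high-collagen gels 13.8 and 15.6 untreated and 74.7 and 85.9 with IL-4. No groups next to each other in level overlapped, and plates with IL-4 stood between low- and high-collagen gels with IL-4. IL-4 raised it 6.43-fold in low-collagen gels (log2 fold change 2.62, SE 0.112, adjusted p = 3.58e-06), 5.47-fold in high-collagen gels (2.37, adjusted p = 9.59e-06) and 4.09-fold on TC plates (2.00, adjusted p = 1.69e-06). Both libraries with IL-4 exceeded both untreated ones each time. With IL-4, high-collagen gels had 1.5-fold less than low-collagen gels (−0.58, adjusted p = 0.0324, lower in 2 of 2 libraries). Without IL-4 the difference of −0.33 did not pass (adjusted p = 0.216), though it did after rescaling (adjusted p = 0.19), and the interaction was −0.25 (adjusted p = 0.632).

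Untreated gels held less Bhlhe40 than plates (−0.69, adjusted p = 0.000176), in 4 of 4 libraries. With IL-4 the difference was −0.19 (adjusted p = 0.126), but the groups overlapped, and rescaling turned the value to 0.083 (adjusted p = 0.433), so no direction holds for this comparison. The call was also lost without replicate 1 of TC plates with IL-4 (adjusted p = 0.409), replicate 1 of high-collagen gels with IL-4 (0.286) or replicate 2 of low-collagen gels with IL-4 (0.23). The IL-4 response was larger in gels than on plates by 0.50 (SE 0.141, adjusted p = 0.0501). Bhlhe40 lies at chr6:108660629-108666925 on the plus strand, shares 1.97% of its 31-base words, most of them with the antisense gene 0610040F04Rik, and had its nearest patterns in Slc7a2 (r = 0.992) and Fam20c (r = 0.987). Slc7a2 encodes a transporter of arginine.

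Batf3, the gene of a bZIP factor that pairs with JUN and IRF proteins, had a pattern close to that of Irf4. Its TPM were 3.57 and 2.31 on untreated TC plates and 12.9 and 10.2 with IL-4. Low-collagen gels gave 6.73 and 4.75 untreated and 50.4 and 53.4 with IL-4, and high-collagen gels 9.19 and 5.63 untreated and 33.3 and 35 with IL-4. The untreated gels overlapped each other, and the groups with IL-4 were ordered low-collagen gels, high-collagen gels, TC plates without overlap. IL-4 raised Batf3 9.04-fold in low-collagen gels (log2 fold change 2.99, SE 0.213, adjusted p = 5.12e-05), 4.61-fold in high-collagen gels (2.10, adjusted p = 0.000514) and 3.93-fold on TC plates (1.68, adjusted p = 0.000575). Both libraries with IL-4 exceeded both untreated ones each time.
The window at chr1:191098164-191098413 on the plus strand held an E-box 247 bases before its RefSeq start, in capitals here and shown for that match. This window lies inside the annotated gene, at chr1:191097847-191108945.
Batf3: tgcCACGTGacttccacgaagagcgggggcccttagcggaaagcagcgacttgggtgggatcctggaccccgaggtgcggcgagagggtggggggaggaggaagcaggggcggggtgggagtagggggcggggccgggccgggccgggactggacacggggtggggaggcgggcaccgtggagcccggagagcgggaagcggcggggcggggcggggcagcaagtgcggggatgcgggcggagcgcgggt

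With IL-4, high-collagen gels had 1.52-fold less Batf3 than low-collagen gels (−0.59, SE 0.213, adjusted p = 0.156, lower in 2 of 2 libraries). This call was lost when any of the 4 compared libraries was left out, with adjusted p of 0.345 and 0.361 without replicate 1 or 2 of the high-collagen gels and 0.291 and 0.419 without replicate 1 or 2 of the low-collagen gels. Untreated, the difference was 0.30 (adjusted p = 0.542). The interaction was −0.89 (unadjusted p = 0.0189, adjusted p = 0.434) and did not pass. Gels exceeded plates by 0.93 untreated (adjusted p = 0.00242) and by 1.79 with IL-4 (adjusted p = 3.05e-05), in 4 of 4 libraries each time. The IL-4 response was larger in gels by 0.86 (SE 0.285, adjusted p = 0.0887), a call lost without replicate 1 of untreated TC plates (adjusted p = 0.289) or replicate 2 of TC plates with IL-4 (0.265). Batf3 lies at chr1:191097847-191108945 on the plus strand, shares none of its 31-base words, and had its nearest patterns in Irf4 (r = 0.989) and Tmed3 (r = 0.975).

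Of Bhlhe41, Batf, Batf2, Jdp2, Id2 and Id3, relatives of Bhlhe40 and Batf3 or inhibitors of bHLH factors, none was called higher and 2 fell with IL-4 in low-collagen gels (median 0), Bhlhe41 (−0.96, adjusted p = 0.00588) and Id3 (−0.38). After rescaling the median was 0.21, with 1 gene higher and 1 lower. High-collagen gels had 3 lower (median −0.13), or 1 after rescaling (median −0.036). TC plates had 2 lower (median −0.28), with Id3 at −0.90 and Jdp2 at −0.65. Bhlhe41 was higher in high- than in low-collagen gels with IL-4 (0.77, adjusted p = 0.0535), opposite in direction to Bhlhe40. Untreated gels had 5 of the 6 lower than plates and 1 higher (median −0.79, beside −0.15 over all genes and 46.7% of all genes called lower), with Id2 at −2.11.

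**Figure D3:**
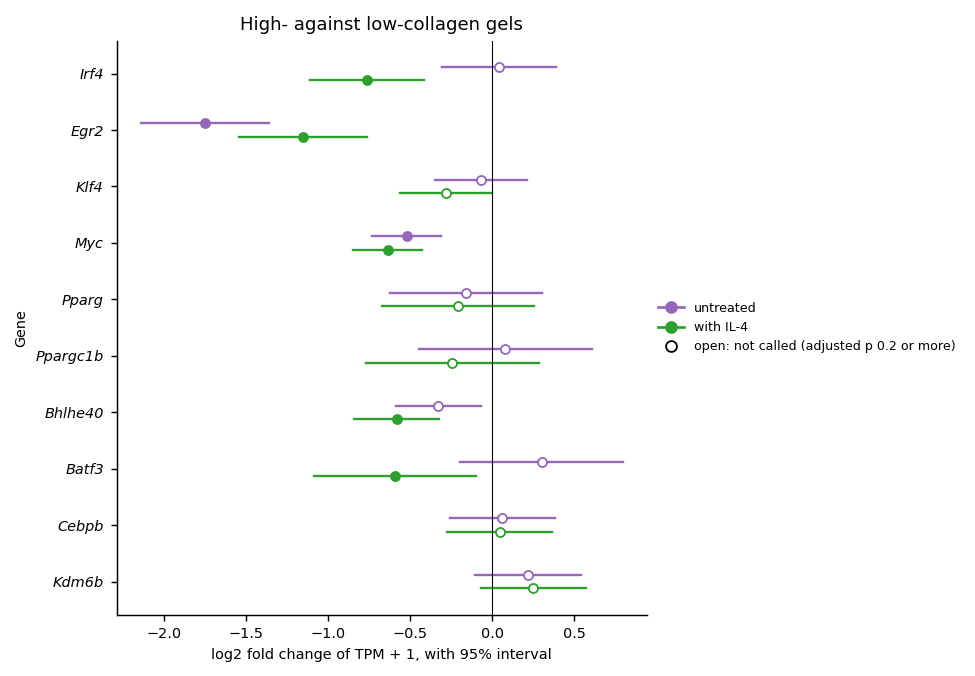
Log2 fold change of TPM + 1 in high- against low-collagen gels for the 10 regulators, untreated and with IL-4, with 95% intervals from limma. Egr2 (−1.75 and −1.15) and Myc (−0.52 and −0.63) were called lower in both states, and Irf4, Bhlhe40 and Batf3 with IL-4.

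Cebpb, the gene of the bZIP factor C/EBPβ, was expressed in all groups and went down with IL-4 in gels. Its TPM on TC plates were 29.1 and 35.8 untreated and 37.1 and 37.9 with IL-4. In low-collagen gels they were 40.1 and 37.7 untreated and 25 and 27.2 with IL-4, and in high-collagen gels 47.4 and 34.9 untreated and 27.2 and 26.8 with IL-4. The gels with IL-4 were the lowest and overlapped each other, and the untreated high-collagen libraries spread the widest. Cebpb fell in low-collagen gels (log2 fold change −0.56, SE 0.138, adjusted p = 0.0191) and in high-collagen gels (−0.57, adjusted p = 0.0271), in 2 of 2 libraries each. Without replicate 1 of the untreated high-collagen gels the second value shrank to −0.36 (adjusted p = 0.109), and after rescaling the first shrank to −0.35 (adjusted p = 0.136). On TC plates the difference was 0.21 and did not pass (adjusted p = 0.328), though it did without replicate 2 of the untreated TC plates (adjusted p = 0.191) or without replicate 1 or 2 of the untreated high-collagen gels (0.198 and 0.196). The response in gels was lower than on plates (difference −0.77, SE 0.169, adjusted p = 0.0172).

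Against plates, Cebpb was higher in untreated gels by 0.29 (adjusted p = 0.0555), with overlapping groups. That call was lost without replicate 1 of the untreated TC plates (0.15, adjusted p = 0.414), and the value fell to 0.18 without replicate 1 of the untreated high-collagen gels. With IL-4 the gels were lower (−0.48, adjusted p = 0.00518), in 4 of 4 libraries, with a value of −0.22 after rescaling (adjusted p = 0.159). The collagen concentration gave 0.064 untreated (adjusted p = 0.866), 0.047 with IL-4 (adjusted p = 0.869) and an interaction of −0.017 (adjusted p = 0.988). Cebpb lies at chr2:167688915-167690418 on the plus strand and overlaps Tmem189 on the other strand. Its transcript shares 19.6% of its 31-base words with other genes, 283 of 1474 with Tmem189, so its level is less certain than the others. Its nearest patterns, at lower r than those of the other regulators, were Ucp2 (r = 0.934) and Cfap97 (r = 0.916).

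Among the C/EBP relatives, Cebpa, a factor of myeloid differentiation, rose with IL-4 in low-collagen gels (0.41, adjusted p = 0.0111), in high-collagen gels (0.38) and on TC plates (0.89), opposite to Cebpb in gels. Of the 5 genes, 1 rose and 1 fell in low-collagen gels (median −0.041, or 2 and 0 after rescaling with 0.17 as median). In high-collagen gels 1 rose and 2 fell (median 0.11, or 1 and 1 after rescaling), and 1 rose on TC plates (−0.047). Cebpd fell in high-collagen gels (−0.82), and with IL-4 it was lower in high- than in low-collagen gels (−1.13). Against plates, Cebpa was higher in untreated gels (0.63) and Cebpz lower (−0.65). The IL-4 response of Cebpa was smaller in gels than on plates (−0.50, adjusted p = 0.0322).

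Kdm6b, the gene of the histone demethylase, separated gels from plates more than it separated treatments. Its TPM were 2.24 and 1.63 on untreated TC plates and 2.12 and 2.01 with IL-4. Low-collagen gels gave 9.32 and 10.4 untreated and 8.55 and 6.79 with IL-4, and high-collagen gels 12 and 11.2 untreated and 9.46 and 9.08 with IL-4. All 8 gel libraries lay above all 4 plate libraries, and the plates with and without IL-4 overlapped. Untreated gels exceeded plates 5.55-fold (log2 2.00, SE 0.132, adjusted p = 7.64e-07), and with IL-4 4.1-fold (1.62, adjusted p = 3.50e-06). High and low collagen differed by 0.22 untreated (adjusted p = 0.497) and 0.25 with IL-4 (adjusted p = 0.322), with an interaction of 0.032 (adjusted p = 0.974).

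With IL-4, Kdm6b fell in low-collagen gels (log2 fold change −0.33, SE 0.138, adjusted p = 0.11, lower in 2 of 2 libraries). That call was lost after rescaling (−0.13, adjusted p = 0.442), without replicate 2 of the untreated low-collagen gels (−0.26, adjusted p = 0.34) and without replicate 2 of those with IL-4 (−0.18, adjusted p = 0.464). In high-collagen gels the value of −0.30 lay just inside the threshold (adjusted p = 0.196). It was lost after rescaling (−0.20, adjusted p = 0.314). Leaving out replicate 1 or 2 of the untreated high-collagen gels ended it (adjusted p = 0.474 and 0.291), as did replicate 1 or 2 of those with IL-4 (0.361 and 0.401) or of the untreated low-collagen gels (0.205 and 0.204). On TC plates the difference was 0.071 (adjusted p = 0.792). The response in gels minus that on plates was −0.38 and did not pass (adjusted p = 0.231), but it passed without replicate 1 of the untreated TC plates (0.177) or of the low-collagen gels with IL-4 (0.168).

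Kdm6b lies at chr11:69398508-69413675 on the minus strand and overlaps the antisense gene Kdm6bos, with which most of its 3.29% of shared 31-base words are found. Its nearest patterns were Clec4a1 (r = 0.990) and Fxr1 (r = 0.989). Other genes of the same histone mark, the demethylase gene Kdm6a and the Polycomb genes Ezh1, Ezh2, Eed, Suz12 and Jarid2, did not rise with IL-4. In low-collagen gels 5 of these 6 fell (median −0.43, beside 40.4% of all genes and a median of −0.19), or 4 after rescaling (median −0.22), with Kdm6a at −0.63 (adjusted p = 0.0139), Ezh1 at −0.49 and Jarid2 at −0.48. High-collagen gels had 2 lower (median −0.21, beside 22.8%) and TC plates 3 lower (median −0.23, beside 24%). Untreated gels held less Ezh2 (−1.39, adjusted p = 3.56e-06) and more Ezh1 (1.13) than plates, and with IL-4 the values were −1.08 and 0.93.

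Read side by side, the comparison of collagen concentrations called fewer of the regulators than IL-4 did. Without IL-4, 2 of the 10 were called lower in high-collagen gels, Egr2 and Myc, beside 4.79% of all genes called lower, and none higher. The medians were −0.011 over the 10 genes and −0.024 over all genes. With IL-4, 5 of the 10 were called lower in high-collagen gels (Egr2, Irf4, Myc, Bhlhe40 and Batf3), beside 6.99% of all genes, and the medians were −0.43 and 0.064. The 2 groups with IL-4 also did not overlap in Klf4, Pparg, Ppargc1b and Kdm6b, which were not called. Of these, Kdm6b was higher at high collagen (0.25). The share of all genes without overlap was not counted, so nothing is drawn from this separation. The interaction of collagen and IL-4 called none of the 10 in limma, beside 0.363% of all genes, while 3 of the 10 (Irf4, Batf3 and Egr2) and 1171 of all genes had an unadjusted p below 0.05. A difference that passes with IL-4 and not without it is therefore not shown to depend on IL-4. These comparisons share libraries with each other and with the IL-4 comparisons. The calls over all genes leaned on single libraries, since 951 genes were called between untreated gels but 138 without replicate 2 of the high-collagen gels, 190 without replicate 1 of them and 249 without replicate 2 of the low-collagen gels.

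Between gels and plates all 10 regulators passed the adjusted threshold in both states, but with IL-4 only 8 of them had an unadjusted p below 0.05, and the calls of Bhlhe40 and Ppargc1b were lost under several alternatives. Untreated, 6 were called higher in gels (Irf4, Egr2, Klf4, Batf3, Cebpb and Kdm6b), beside 29.7% of all genes, and 4 lower (Myc, Pparg, Ppargc1b and Bhlhe40), beside 46.7%. With IL-4, 6 were called higher (Ppargc1b in place of Cebpb), beside 25.7% of all genes, and 4 lower (Cebpb in place of Ppargc1b), beside 51.8%. Since most genes passed here, these counts say little about the 10 genes as a group. Rescaling moved the median of all genes from −0.15 to 0.0023 untreated and from −0.24 to 0.0029 with IL-4, and Bhlhe40 with IL-4 changed direction. The IL-4 response was larger in gels than on plates for 5 of the 10 (Myc, Batf3, Ppargc1b, Irf4 and Bhlhe40), beside 10.8% of all genes, and smaller for 1 (Cebpb), beside 16.4%. Of these 6 calls Irf4 reversed with the smaller pseudocount, as given above for its low level on plates.

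**Figure D4:**
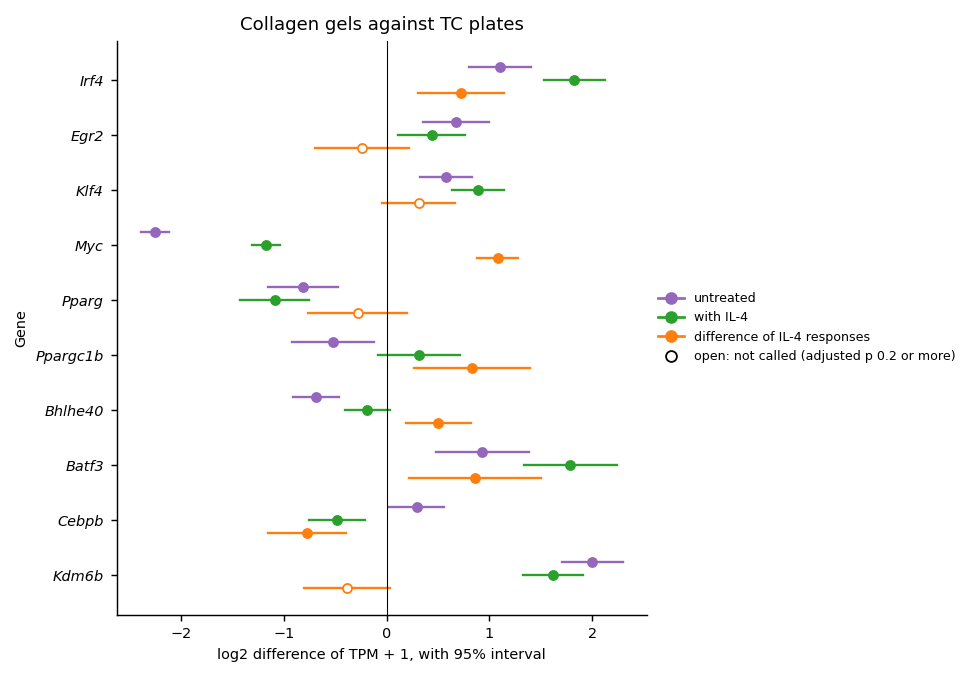
Log2 difference of TPM + 1 between collagen gels and TC plates for the 10 regulators, untreated and with IL-4, and the difference of the IL-4 responses, with 95% intervals from limma. Myc was lower in gels in both states (−2.25 and −1.17) with a larger IL-4 response (1.08), Kdm6b was higher in gels (2.00 and 1.62), and Bhlhe40 with IL-4 turned from −0.19 to 0.083 after rescaling.

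Genes that pass on the IL-4 signal were read beside the regulators. Of 10 genes of the IL-4 receptor pathway, 3 rose and 6 fell in low-collagen gels (median −0.23), or 4 and 4 after rescaling. The feedback inhibitor gene Socs1 rose by 6.62 (adjusted p = 1.43e-07) and Cish by 4.42, while the receptor gene Il13ra1 (−2.09) and the kinase gene Jak3 (−0.64) fell. High-collagen gels had 2 higher and 6 lower (median −0.21) with Socs1 at 5.99, or 3 and 3 after rescaling, and TC plates 2 higher and 5 lower (median −0.20) with Socs1 at 4.77. High-collagen gels with IL-4 had less Socs1 than low-collagen gels (−0.69, adjusted p = 0.036), as 5 of the regulators did, and more Il13ra1 (0.77). The response of Socs1 was larger in gels than on plates by 1.54 and that of Cish by 1.37. Of 6 lineage factor genes of macrophages, 2 rose and 3 fell in low-collagen gels (median −0.073), or 3 and 1 after rescaling (median 0.14), with Maf at −1.31 and Tfec at 1.00. In high-collagen gels 2 rose and 3 fell (−0.15), and on TC plates 3 rose and 1 fell (0.33), Tfec by 1.75.

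Downstream, 12 genes that mark alternative activation were set beside the regulators. In low-collagen gels 11 of them rose with IL-4 (median 3.52), led by Retnla at 12.83, Chil3 at 8.93 and Mgl2 at 8.37. In high-collagen gels 11 rose (median 2.34), and on TC plates 10 of 11 tested (median 4.24). In cells given IL-4, Retnla, which encodes a secreted repair protein, had TPM of 7612 and 9073 in low-collagen gels, 1472 and 1152 in high-collagen gels and 126 and 109.7 on TC plates. These groups had the order that Irf4, Klf4, Batf3 and Ppargc1b showed with IL-4, low-collagen gels, high-collagen gels, then plates, without overlap. Given IL-4, high-collagen gels were lower than low-collagen ones in 5 of 12 (beside 6.99% of all genes) and higher in 1 (median −0.40), with Ccl24 at −3.77, Retnla at −2.67, Chil3 at −1.73 and Clec7a at −0.41, and after rescaling 6 were lower. In the interaction 3 of the 12 were called lower, Ccl24 at −2.94 (adjusted p = 0.191), Retnla at −2.72 (adjusted p = 0.0319) and Chil3 at −1.49 (adjusted p = 0.0632), whereas none of the 10 regulators was. Across the other 14 lists no gene was called in the interaction by limma, and 12 of their 100 tested genes had an unadjusted p below 0.05, beside 1171 of all 11852 genes.

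**Figure D5:**
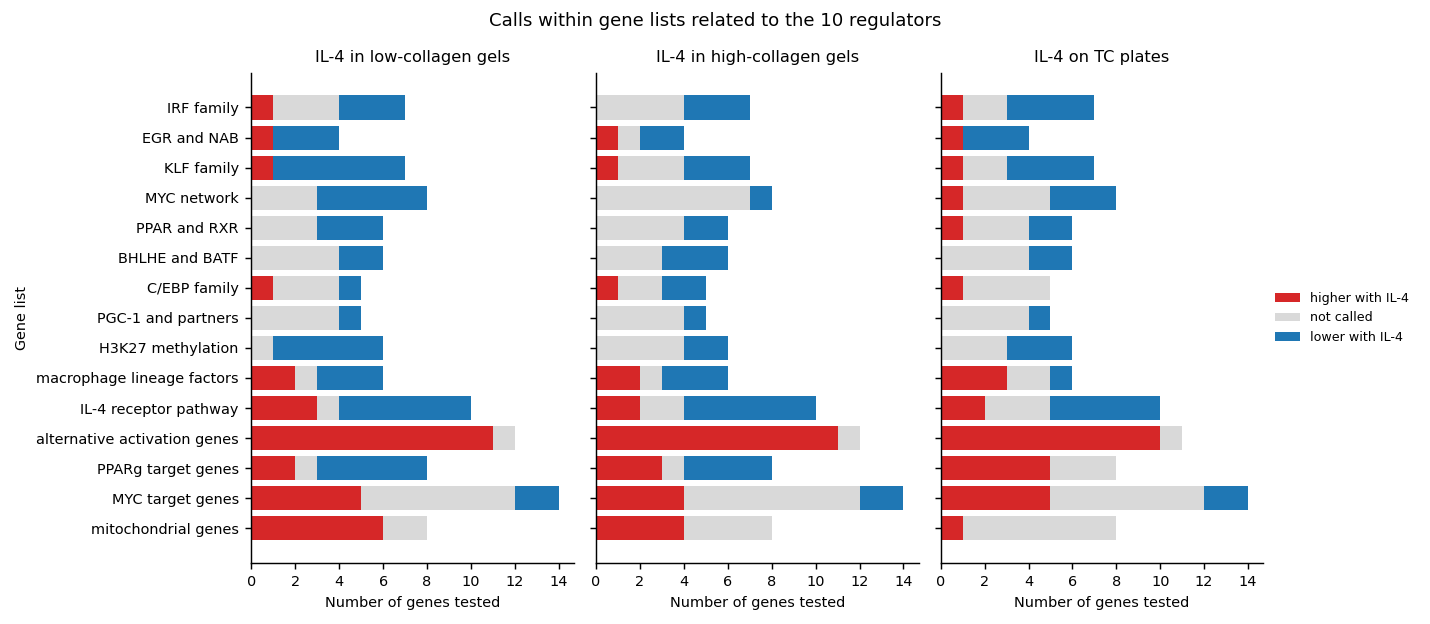
Number of genes of each related list that were called higher, called lower or not called with IL-4 in low-collagen gels, high-collagen gels and on TC plates. Genes of alternative activation were nearly all higher (11, 11 and 10). Most relatives of the regulators were lower or not called, as were most of all genes, of which 13.2%, 11.5% and 14.7% were called higher. Over all lists, activation genes included, the 33 higher and 45 lower genes in low-collagen gels became 43 and 26 after rescaling.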

How the data were processed

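RNA-seq of 12 BMDM libraries was used, 2 in each of 6 groups taken from the sample labels, and no library was left out. Paired-end reads from stranded mRNA libraries were quantified by the authors with kallisto 0.46.1 on GRCm38 transcripts, and they deposited TPM for each gene. The kallisto options listed in the paper's methods include no strand option. How transcripts were summed to genes is not given in the sources used here. Of 34456 lines, 129 repeated entries were collapsed, which left 34327 genes. The submitters' processing notes name the tool and the build.

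From these TPM, log2(TPM + 1) was computed and fitted with limma 3.58.1 in R 4.3.3, with 1 mean per group, a variance trend over mean level and Benjamini-Hochberg adjustment over all genes with a mean of at least 1 TPM. Comparisons within gels used the 8 gel libraries (11852 genes) and those with TC plates all 12 (11865 genes). Calls were made at an adjusted p under 0.2. The fit was tested on simulated data, but no result of that test is given or relied on here. No read counts were available, so no test on counts was used and no depth can be given.

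The 10 genes and all lists were chosen with earlier results of these data known, and the promoter motifs were chosen later. The lists were the IRF, EGR and NAB, KLF, MYC network, PPAR and RXR, BHLHE and BATF, C/EBP, PGC-1, histone methylation, lineage factor, IL-4 receptor, alternative activation, PPARγ target, MYC target and mitochondrial genes. All 10 genes were named, with up to 4 called genes of largest change per list and the 2 genes with the nearest pattern (Pearson r, mean of at least 5 TPM). The counts and sums cover all genes of the lists, but 2 of the genes are not reported here by name. Shared words are the 31-base words of a gene's GENCODE transcripts found in the transcripts of another gene, read on either strand.

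The results were recomputed without a filter, with a filter at 5 TPM, with a pseudocount of 0.1, after median-ratio rescaling, with a replicate block, at a threshold of 0.05, with a 2-fold minimum, with all 12 libraries or only the compared ones in the fit, and with each library left out in turn. A crossed pairing of replicate numbers was added after seeing the data. Tables were made in pandas 2.3.3 and numpy 2.4.6, and plots in matplotlib 3.10.9, under python 3.11.15. The paper's other assays were not used here.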

Additional observations from a re-analysis of the deposited data

Results flagged for a closer look

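For 6 of the 10 regulators the IL-4 effect on log2(TPM + 1) differed between collagen gels and TC plates by the test of that difference over all 12 libraries. It was larger in gels for Myc by 1.08 (adjusted p = 0.000101), for Batf3 by 0.86 (adjusted p = 0.0887), for Ppargc1b by 0.84 (adjusted p = 0.0638), for Irf4 by 0.72 (adjusted p = 0.0369) and for Bhlhe40 by 0.50 (adjusted p = 0.0501). For Cebpb it was lower in gels, with a difference of −0.77 (adjusted p = 0.0172), since IL-4 lowered Cebpb in gels and gave 0.21 on plates. The value of Irf4 turned to −0.28 with a pseudocount of 0.1, and the call of Batf3 was lost without replicate 1 of untreated TC plates (adjusted p = 0.289) or replicate 2 of TC plates with IL-4 (adjusted p = 0.265). Over all genes tested, 10.8% were called with a larger response in gels and 16.4% with a smaller one.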

How the results depend on the processing

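Each of the 12 libraries was left out in turn for comparisons with TC plates, and each of the 8 gel libraries for those within gels. Over the 10 regulators and 9 comparisons, 90 results were recomputed in this way and under up to 10 other settings, which gave 1581 values. Of these, 1496 stayed on their side of the threshold, 68 lost the call, 15 gained one and 2 turned a called value around, and 56 of the 90 results had no change of call under any alternative run. Values that were not called could change sign and are counted among the 1496, such as Kdm6b with IL-4 on TC plates, which ran from −0.0789 to 0.2218. The called values that turned were Bhlhe40 in gels against TC plates with IL-4, at 0.0829 under median-ratio rescaling, and the difference of the Irf4 response between gels and plates, at −0.2848 with a pseudocount of 0.1, which comes from untreated plates under 1 TPM. For other changes the cause was not tested, except that a stricter rule calls fewer genes by construction. All 8 higher calls with IL-4 held in low- and high-collagen gels under each alternative run for them (Ppargc1b lies below the 5 TPM filter), and on TC plates they held except that Myc and Ppargc1b missed a 2-fold change of TPM + 1.

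Counts of called genes moved more. At an adjusted p under 0.05 the IL-4 comparison called 3656 of 6351 genes in low-collagen gels, 1890 of 4064 in high-collagen gels and 2710 of 4598 on TC plates. High against low collagen then called 63 of 951 untreated and 561 of 2500 with IL-4, the interaction 7 of 43 and the response in gels against plates 1303 of 3218. With a 2-fold change required as well, the counts in the same order were 816, 540, 722, 93, 136, 24 and 401, and gels against plates had 2524 of 9061 untreated and 2436 of 9197 with IL-4. The regulators called between untreated high- and low-collagen gels went from 2 to 1 under either stricter rule, and those with IL-4 from 5 to 1 with the fold rule. Under the fold rule gels against plates called 3 regulators untreated and 5 with IL-4, and the response comparison called 1, or 3 at an adjusted p under 0.05. Without a filter high against low collagen called 567 genes untreated and the interaction 66, and with all 12 libraries in the fit the interaction called 95. With a replicate block these counts were 586 and 18, and the adjusted p of Kdm6b in high-collagen gels with IL-4 was 0.24.

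Leaving out 1 library gave 4218 to 6220 genes for IL-4 in low-collagen gels and 2470 to 4284 in high-collagen gels. High against low collagen ranged from 138 to 721 genes and 1 to 2 regulators untreated, and from 715 to 2678 genes with IL-4. The interaction ranged from 10 to 50 genes and the response in gels against plates from 2098 to 3495. A group left with 1 library is assumed there to vary like the others. A crossed pairing of replicate numbers, chosen after seeing the data, called 6804 genes and 10 regulators for IL-4 in low-collagen gels and 4472 genes and 8 regulators on TC plates.

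Rescaling changed the balance of directions over all genes. The share called higher with IL-4 went from 24.7% to 54.1% in low-collagen gels, from 33.6% to 53.8% in high-collagen gels and from 38% to 49.4% on TC plates. In high against low collagen it went from 40.3% to 50.7% untreated and from 66.9% to 45.7% with IL-4, and in the interaction from 53.5% to 36.8%. For gels against plates it went from 38.9% to 49.8% untreated, from 33.2% to 49.9% with IL-4 and from 39.7% to 60.6% in the response.

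The limits are few libraries, no read counts and no known depth. With 2 libraries a group, single calls such as those of Kdm6b and Batf3 changed when 1 library was left out. Genes below 1 TPM in a group, such as Irf4 on untreated plates, depend on the pseudocount. Groups were also set apart by gel handling, and collagen, floating and dimension cannot be told apart in gels against plates.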
